A study of Saccharomyces cerevisiae with 8 samples.

Results

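C160 is the largest subunit of RNA polymerase III (Pol III), and its signal along the genome of budding yeast, Saccharomyces cerevisiae, was compared between cells given rapamycin for 30 min and untreated cells (0 min). For every array region with a value in both conditions, the log2 value of untreated cells was subtracted from that of treated cells. These were 6258 of the 6399 regions, and 141 lacked a value on at least 1 of the arrays. Of the 6258, 245 were named for a tRNA gene (of 250 such regions, for 243 distinct genes), 7 for another Pol III gene, 244 for a long terminal repeat (LTR), 37 for a small nucleolar or small nuclear RNA gene of RNA polymerase II, 5679 for an open reading frame (ORF) and 46 for other elements.

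The series mapped 4 proteins of the Pol III machinery by chromatin immunoprecipitation (ChIP) and hybridisation to arrays of intergenic regions, with 1 deposited array per protein and condition. All cells were grown in rich YPD medium to an early exponential density, and the treated ones received rapamycin at 0.2 ng per µl. C160 carried an HA epitope, while the other 3 proteins, Brf1 and Bdp1 of TFIIIB and Tau95 of TFIIIC, carried a myc epitope. Per the labels, each array set precipitates of wild-type cells (Cy5) beside precipitates of cells with a deletion of MAF1 (Cy3), a general repressor of Pol III. No source used here says which channel the deposited value comes from, so nothing is said about the strains. The labels put experiments in triplicate behind each condition, but the file held 1 value a region, so no difference below has a replicate error or a p-value, and spreads are over regions.

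Pol III makes tRNAs, the 5S ribosomal RNA, the U6 spliceosomal RNA and a few other short RNAs. TFIIIC binds promoter elements inside a tRNA gene and places TFIIIB just upstream of it, and TFIIIB then recruits the polymerase. Rapamycin inhibits the TOR kinase complex 1, and in yeast Pol III transcription is repressed under this drug. A value here averages a whole culture, so fewer cells with polymerase at a gene and less polymerase at the gene in each cell cannot be told apart.

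The 0 min array held 6282 C160 values, with a median of -0.08 and a highest value of 7.18, and the 30 min array held 6262, with a median of 0.00 and a highest value of 8.13. A region's name is that of the element at its lower-coordinate end. C160 bore this out at 0 min: ORF-named regions with a tRNA gene next at higher coordinates had a median of 2.41 (n = 216), and those with one at the lower side -0.06 (n = 203). ORF-named regions were therefore split into 229 with a tRNA gene at the far end, 2 with another Pol III gene there, 5170 with neither and 278 that could not be placed. The 5170 are called ORF regions without a Pol III gene and serve as background, although LTRs at their far end could not be screened. Of these, 175 were covered by several array pieces, and how far the pieces of a region part is the only guide to noise here. It is a rough one, since the pieces are different stretches of DNA read on the same pair of arrays. The changes of their first and last pieces differed by a median of 0.39 and, at the 90th percentile, by 1.11.

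In the deposited values C160 was lower at tRNA genes after rapamycin and slightly higher at most ORF regions. The median over the 245 tRNA-named regions was 2.95 at 0 min and 2.45 at 30 min, and the median of their changes was -0.34 (quartiles -0.79 and 0.02), a ratio of 0.788. The order-statistic 95% interval of this median, which covers the spread over regions only, ran from -0.46 to -0.25. Across the 5170 ORF regions without a Pol III gene the median was -0.20 at 0 min and -0.12 at 30 min, with a median change of 0.11 (quartiles -0.17 and 0.39). This small rise depended on the zero point, and was 0.035 with each array centred on all regions. The tRNA-named regions were thus bright before and after, and most of them stayed far above the background level.

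A change of 2-fold or more downward was seen at 41 tRNA-named regions (16.7%), against 2.17% of all 6258 regions and 0.948% of the ORF regions without a Pol III gene. A change of 2-fold or more upward was seen at 4 tRNA-named regions (1.63%), against 3.36% and 3.52%. A value below zero, of any size, was found at 177 tRNA-named regions (72.2%) and at 42.1% of all regions. Over all regions 136 were lower and 210 higher by 2-fold, a split of 39.3% lower that depended on the zero point: it was 52.6% lower with each array centred on its median and 68.5% with the spread of ORF-named regions made equal as well. With equal spread the tRNA median was -0.67 and 73 tRNA-named regions were lower by 2-fold, so the size of the change rests on the scale of the arrays while its sign was the same under every scaling tried.

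**Figure D1:**
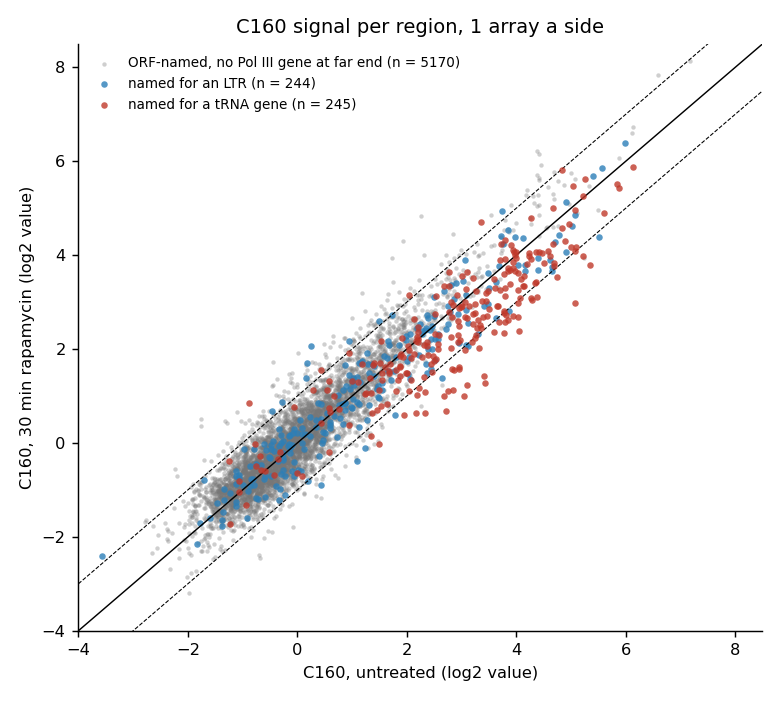
C160 log2 value of each region at 30 min of rapamycin (vertical axis) against that in untreated cells (horizontal axis), for regions named for tRNA genes, LTRs and ORFs without a Pol III gene. The solid line marks no change and the dashed lines 2-fold, and the tRNA points lie mostly below the solid line (177 of 245) while the brightest ORF points lie above it.

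**Figure D2:**
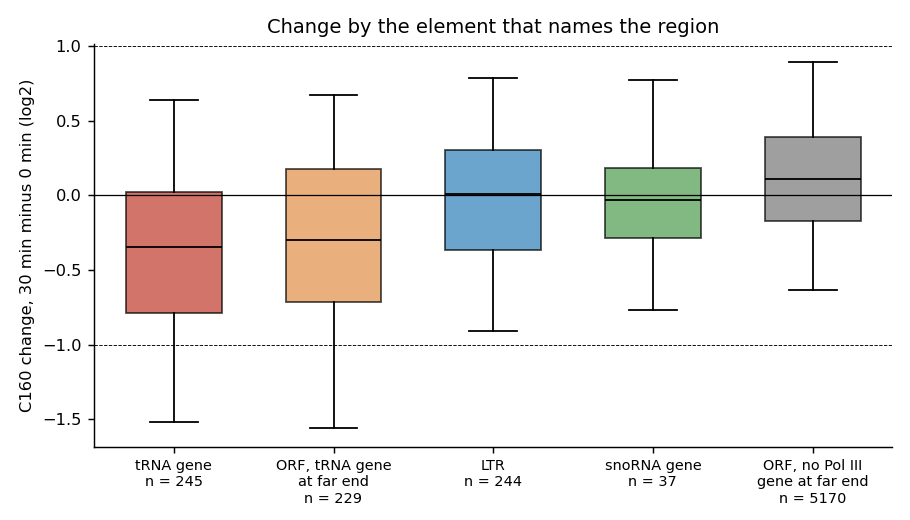
C160 change in log2 units by the element that names the region, with the median (line), the quartiles (box) and the 5th to 95th percentile over regions (whiskers). Both groups beside tRNA genes have their median near -0.3, while LTR and snoRNA regions centre near zero and ORF regions without a Pol III gene at 0.11.

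The lower signal at tRNA genes depended on the starting level. To keep the noise of the C160 arrays out of the ranking, the level of a region was taken as the mean of Bdp1, Brf1 and Tau95 at 0 min, which are separate arrays. The tRNA-named regions were ranked by this level and split into 4 groups. The dimmest group had a C160 median of 1.20 at 0 min and 1.08 at 30 min, with a median change of 0.00 (n = 62, 31 of them below zero), which was -0.17 with equal spread. The next group up had a median change of -0.44 (45 of 61 below zero) and the one above it -0.50 (51 of 61 below zero). The brightest group went from a median of 4.29 to 3.91, with a median change of -0.44 (n = 61, 50 below zero). The other 3 groups had -0.67, -0.85 and -0.85 with equal spread, so the dimmest group changed least under either scaling.

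In steps of 1 log2 unit of this level, the median C160 change of tRNA-named regions was -0.06 from 1 to 2 (n = 41), -0.50 from 2 to 3 (n = 72), -0.46 from 3 to 4 (n = 69) and -0.45 at 4 and above (n = 37). Below 1 there were only 12 and 14 regions a step, with medians of 0.16 and -0.02. ORF regions with a tRNA gene at the far end were already lower from 1 to 2, at -0.32, and then stood at -0.39, -0.41 and -0.44. ORF regions without a Pol III gene ran the other way, from 0.09 below 0 (n = 2597) through 0.19 from 1 to 2 (n = 663) to 0.38 from 3 to 4 (n = 49) and 0.70 at 4 and above (n = 32). This climb depended on the scale of the arrays, and equal spread is set on ORF-named regions, so some flattening of it is built in. With equal spread the ORF medians were -0.01 from 1 to 2, -0.04 from 3 to 4 and 0.17 at 4 and above, close to flat. The tRNA medians in the same 4 steps were then -0.27, -0.69, -0.80 and -0.98, so they went on falling with the level instead of settling. Under either scaling tRNA-named regions lay below ORF regions in each of these 4 steps.

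**Figure D3:**
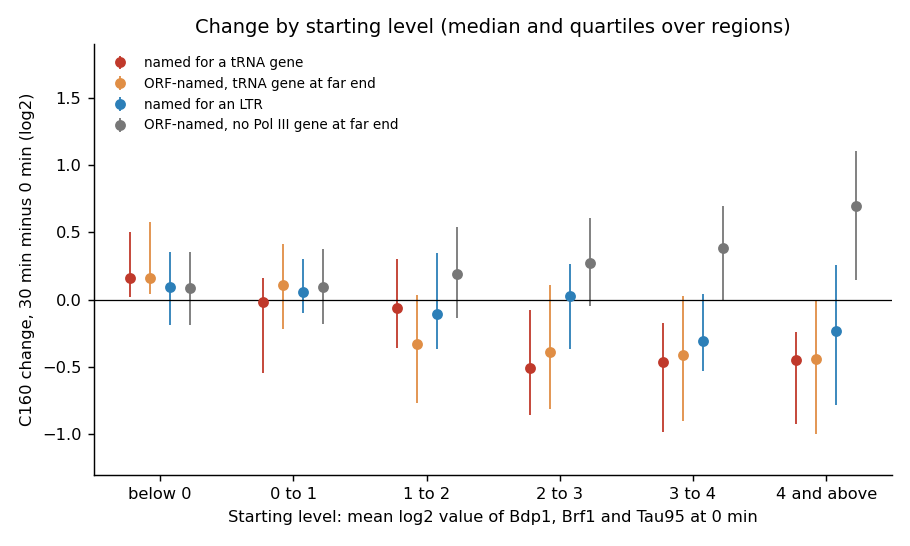
Median C160 change in log2 units (points) with quartiles over regions (bars), by starting level, which is the mean log2 value of Bdp1, Brf1 and Tau95 at 0 min. Regions named for tRNA genes settle near -0.45 from a level of 2 upward, while ORF regions without a Pol III gene climb to 0.70, a climb that was close to flat with equal spread.

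Where a tRNA-named region was covered by several pieces, C160 was lower at 30 min mainly in the brighter piece, read as the one next to the tRNA gene. The numbering of the pieces was read as their order from the naming element, which the file does not state. In all 6 tRNA-named regions of this kind the first piece was brighter at 0 min than the last. The first pieces had a median of 4.05 at 0 min and 3.63 at 30 min, a median change of -0.87, and a negative change in 6 of 6. The last pieces had 0.11 and 0.21, a median change of -0.08, and a negative change in 3 of 6. Only at tS(UGA)E did the changes of both pieces differ by more (1.66) than the 90th percentile of 1.11 for ORF regions without a Pol III gene. The pattern was not particular to tRNA-named regions: the brighter piece had the lower change in 11 of 14 LTR regions. In ORF regions without a Pol III gene it did so in 89 of 175. The brighter piece was picked by C160 at 0 min, the value that is subtracted to give the change. Noise in that value thus favours a lower change in the brighter piece.

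At the serine gene tS(UGA)E the first piece went from 3.10 to 1.24 and the last from 1.26 to 1.06. At the tryptophan gene tW(CCA)K the first piece went from 3.25 to 2.23 and the last from -0.36 to -0.33. At the glutamate gene tE(CUC)D the first went from 5.0 to 4.18 and the last from 0.58 to 0.75. The smallest difference of the 6 was at the valine gene tV(AAC)G3, with 3.59 and 3.49 in the first piece and -0.66 and -0.58 in the last. The picture was mirrored in most of the 12 ORF regions with a tRNA gene at the far end. The last piece was the brighter in 11 and had a median change of -0.35 (9 of 12 negative), against 0.04 for the first. The brighter piece had the lower change in 9 of 12, a count that picking by C160 at 0 min favours here too.

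ORF regions that end at a tRNA gene give a reading of these genes from other spots on the same arrays. Their C160 median was 2.43 at 0 min and 1.94 at 30 min, and their changes had a median of -0.30 (n = 229, quartiles -0.71 and 0.18). A 2-fold lower value was found at 32 of them (14%) and a 2-fold higher one at 5 (2.18%), against 2.17% and 3.36% of all regions. Split by the strand of the tRNA gene, the 114 regions upstream had a median of 1.86 and then 1.62, with a median change of -0.29. The 115 regions downstream had 2.60 and then 2.11, with a median change of -0.34. The C160 median was thus higher downstream than upstream in both conditions. The upper quartile was higher upstream, at 3.60 against 3.37 at 0 min and 3.10 against 2.94 at 30 min. The 0 min medians of Brf1 (2.80 against 2.15) and Bdp1 (2.97 against 2.74) were higher downstream too, while that of Tau95 was not (1.72 against 1.80). The median change of each flank lay within the interval of the other (-0.35 to -0.16 upstream and -0.48 to -0.13 downstream), which covers the spread over regions only. A 2-fold lower value was found at 21 downstream regions (18.3%) and at 11 upstream (9.6%). With equal spread both medians lay further apart, and the downstream one was the lower. A difference between flanks was not tested.

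The lowest of these ORF regions lay beside GCD11, which encodes a subunit of the initiation factor eIF2, where C160 went from 4.92 to 2.51. The region beside CLB6, a gene for a B-type cyclin, went from 4.97 to 2.69, and that beside GMC1, a gene of meiosis, from 2.21 to 0.00. The region beside RPC17 went from 3.84 to 1.82: RPC17 itself encodes a Pol III subunit, but the region ends at a tRNA gene. The region beside SPO74, a gene of sporulation, went from 2.45 to 0.47. Each gene is named only because its region ends at a tRNA gene.

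The 5 highest of the same kind were beside POR1, the mitochondrial porin gene (1.06 to 2.66), MRI1, a gene of methionine salvage (1.71 to 3.18), the first piece of YOR072W (0.58 to 1.76), the last piece of TYE7, a gene for an activator of glycolytic genes (1.51 to 2.60), and MEF2, a mitochondrial translation factor gene (2.27 to 3.29). The last piece of YOR072W, read as the one at the tRNA gene, went from 2.65 to 2.29. None of the highest 5 began above 2.27, and of the lowest 5 only the region beside GMC1 did not. Both sets were picked by the change itself, which favours such starts. At POR1 the TFIIIB subunits were higher as well, Brf1 by 2.89 and Bdp1 by 1.10, while Tau95 changed by 0.06.

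Among single tRNA genes (the name gives the amino acid letter, the anticodon and the chromosome letter), the lowest change was at the histidine gene tH(GUG)E1, where C160 went from 3.42 to 1.28, a change of -2.14. The methionine gene tM(CAU)D was among the brightest at 0 min and went from 5.08 to 2.98. The arginine genes tR(UCU)E and tR(UCU)G2 went from 3.04 to 1.00 and from 3.41 to 1.43. All of these began above the tRNA median of 2.95, and all but tM(CAU)D ended below 1.48, the lower quartile of tRNA-named regions at 30 min. They were picked by this same difference, which favours a high start and a low end. The starts and ends are thus no further reading of the dependence on starting level.

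The lysine genes tK(CUU)D1 and tK(CUU)G2 went from 2.72 to 0.68 and from 2.84 to 1.12. The threonine gene tT(AGU)B went from 2.69 to 0.99, the phenylalanine gene tF(GAA)G from 2.33 to 0.63 and the glutamate gene tE(UUC)M from 4.05 to 2.39. With the first piece of tS(UGA)E these make up the 10 lowest, between -2.14 and -1.66.

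The 10 highest tRNA-named regions lay between 0.83 and 1.73, and 8 of them began below the tRNA median of 2.95. A low start is likewise favoured by picking the highest changes. The proline gene tP(AGG)N went from -0.88 to 0.85, the lysine gene tK(CUU)I from 0.43 to 1.55, the aspartate gene tD(GUC)G1 from 0.94 to 1.91 and the serine gene tS(GCU)F from 0.28 to 1.13. The isoleucine gene tI(AAU)E1 stayed below zero, at -1.26 and then -0.38, and the glycine gene tG(CCC)O went from -0.05 to 0.77. The valine gene tV(CAC)H went from 2.04 to 3.16 and the proline gene tP(UGG)O1 from 2.77 to 3.65. The leucine gene tL(CAA)N (3.36 to 4.71) and the isoleucine gene tI(AAU)N1 (4.84 to 5.81) began above the median.

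**Figure D4:**
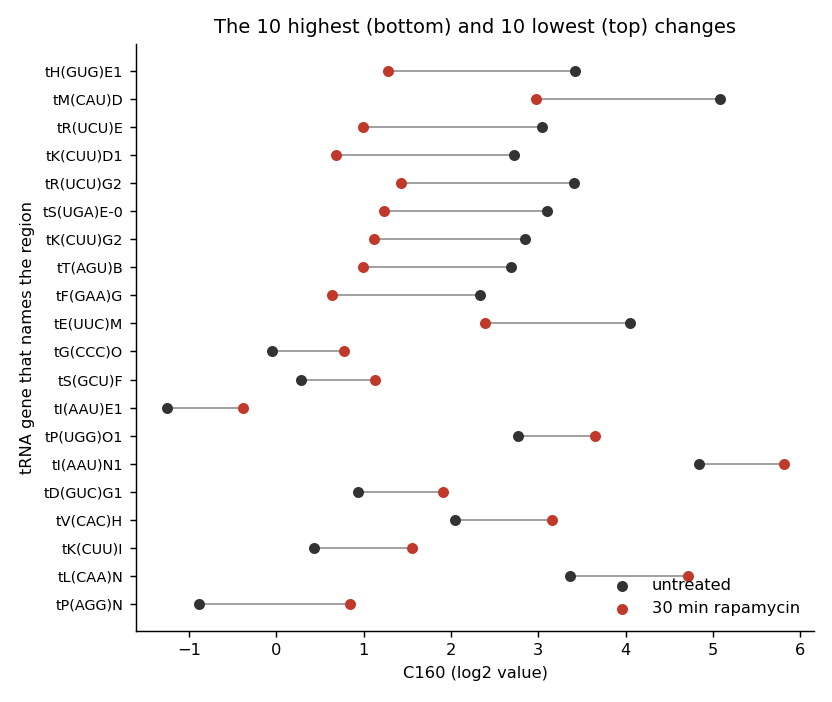
C160 log2 value in untreated cells and at 30 min of rapamycin for the tRNA-named regions with the 10 lowest (top) and the 10 highest (bottom) changes. The lowest start between 2.33 and 5.08 and end between 0.63 and 2.98, while the highest include regions that start near or below zero. Picking by the change favours such starts.

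Of the 5 tRNA-named regions brightest at 0 min, 4 changed by less than 2-fold. The tryptophan gene tW(CCA)G2 had 6.14 and then 5.88, the alanine gene tA(UGC)A 5.88 and 5.43, the leucine gene tL(CAA)A 5.84 and 5.53, and the glycine gene tG(UCC)G 5.60 and 4.91. The fifth was the leucine gene tL(CAA)D, with 5.36 and then 3.79, a change of -1.57. With equal spread tG(UCC)G was past the limit too, at -1.18, and the other 3 had -0.82 for tW(CCA)G2, -0.98 for tA(UGC)A and -0.85 for tL(CAA)A. Copies of a tRNA gene are close in sequence, so their spots may share signal.

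The 2-fold limit separates regions that hardly differ. Just inside it were tT(UGU)G2 (-1.06), tQ(UUG)B (-1.05) and the first piece of tW(CCA)K (-1.02), and just outside tE(UUC)E1 (-0.99), tK(CUU)K (-0.99) and tR(UCU)G3 (-0.98). At a limit of 1.5-fold the tRNA counts were 92 lower and 16 higher, against 8.6% lower and 13.8% higher of all regions.

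The other 3 proteins, each on arrays of its own, were read at the 41 tRNA-named regions where C160 was lower by 2-fold. Brf1, a TFIIIB subunit that contacts the polymerase, had a median change of -0.998 there, with 38 below zero and 20 lower by 2-fold. Over all regions of the array 7.1% were lower for Brf1 by 2-fold and 52.1% were below zero. Bdp1, the other TFIIIB subunit measured, had -0.46, with 39 below zero and 8 lower by 2-fold, against 45.2% and 2.72% of all regions. Tau95 had 0.13, with 16 below zero and 0 lower by 2-fold, against 35% and 1.81% of all regions. Over all tRNA-named regions the medians were -0.73 for Brf1 (186 of 241 below zero), -0.21 for Bdp1 (174 of 245) and 0.26 for Tau95 (70 of 245). ORF regions without a Pol III gene had medians of 0.01, 0.07 and 0.18 for these 3 proteins. Where C160 changed most, the median changes of Brf1 and Bdp1 were thus further below zero than over all tRNA-named regions, and that of Tau95 lay between zero and the ORF median; no test was made.

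Single genes departed from this. At tH(GUG)E1, the lowest of all for C160, Brf1 was higher by 0.83, Bdp1 changed by -0.46 and Tau95 by 0.02. At tK(CUU)G2 Brf1 changed by -2.81 with Bdp1 at -0.40 and Tau95 at -0.25. At tF(GAA)G Brf1 and Bdp1 changed by -1.95 and -1.72, close to the C160 change of -1.69. At tT(AGU)B Brf1 changed by -0.14 against -0.94 for Bdp1. Of the 4 regions higher for C160 by 2-fold, tP(AGG)N and tV(CAC)H were higher for Brf1 by 1.54 and 1.49, and tK(CUU)I was lower, by -1.11.

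Grouped by anticodon, among those with 4 or more regions, the lowest medians were those of tR(UCU) (-0.92, n = 8), tE(UUC) (-0.90, n = 13) and tT(UGU) (-0.82, n = 4). All 13 tE(UUC) regions had a change below zero, between -1.66 and -0.22. The highest medians were those of tR(ACG) (0.02, n = 5), tM(CAU) (-0.01, n = 10) and tK(UUU) (-0.14, n = 5). The 56 regions of intron-containing genes had a median of -0.30 and the other 189 of -0.36. Anticodons were also grouped by how many of their genes named a region with both values, which can be fewer than the genome holds. Those with 1 to 3 such genes had a median of -0.19 (n = 32 regions, of which 1 was lower by 2-fold). Those with 4 to 9 had -0.50 (n = 105, 23 lower) and those with 10 or more -0.32 (n = 108, 17 lower). There was no steady order with this count, and the full family size was not used.

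Of the 7 regions of other Pol III genes, 4 were bright, and none of these changed by 2-fold. The region of SCR1, whose RNA belongs to the signal recognition particle, ends at a tRNA gene and stood at 3.22 and then 2.80. SNR6, the U6 gene, stood at 4.53 and 4.24, and the gene of the RNase P RNA, RPR1, at 3.17 and 3.08. The 5S gene RDN5-1, part of the repeated ribosomal DNA, stood at 6.15 and 5.99. SCR1 thus changed by -0.41, a little more than the tRNA median, and the other 3 by less. With equal spread the changes were -0.73 for SCR1, -0.72 for SNR6, -0.74 for RDN5-1 and -0.42 for RPR1, against a tRNA median of -0.67. Of the dim ones, RDN5-3 stayed at -0.09 and -0.11, SNR52, a snoRNA gene of Pol III, had -1.60 and -0.88, and RDN5-2 went from 0.03 to 1.09. The 5S copies are near identical, so their spots may share signal, though their levels stood far apart at 0 min (6.15, 0.03 and -0.09).

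LTRs of Ty elements lie often near tRNA genes, since Ty1 and Ty3 insert there. The 244 LTR-named regions had a C160 median of 0.99 at 0 min and 0.95 at 30 min, with a median change of 0.01 (quartiles -0.36 and 0.30). That sign depended on the scaling: it was -0.07 with the arrays centred on all regions and -0.17 with equal spread. A 2-fold lower value was found at 9 and a 2-fold higher one at 9, each 3.69%, where all regions had 2.17% lower and 3.36% higher. By kind the medians were 0.01 for delta (n = 199), -0.10 for tau (n = 21), 0.03 for sigma (n = 13) and 0.21 for omega elements (n = 10).

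Bright LTR regions had median changes nearer zero than tRNA regions of like level, and their size rested on the scale. Those with a level of 2 or more had a median of 2.81 and then 2.70, with a median change of -0.21 (n = 89), while tRNA-named regions from 2 upward stood at -0.45 to -0.50. Those with a level of 3 or more had -0.23 (n = 39, 26 below zero). With equal spread these were -0.48 and -0.69, against -0.85 for tRNA-named regions with a level of 3 or more. The lowest LTR regions were YERWDELTA12 (1.09 to -0.38), YKLWDELTA3 (1.23 to -0.12), YCRCDELTA14 (0.43 to -0.89), a piece of YARCDELTA8 (2.65 to 1.38) and YKLCDELTA4 (1.79 to 0.59). The highest were pieces of YCRCDELTA6 (0.25 to 2.07) and YMRWDELTA19 (0.18 to 1.70), YHLWDELTA2 (0.94 to 2.17), YLRCDELTA5 (0.16 to 1.39) and YLRCDELTA8 (3.73 to 4.93). Which LTR regions end at a tRNA gene could not be read from the gene table, which lists no LTRs.

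Regions named for snoRNA and small nuclear RNA genes of RNA polymerase II were dim for C160 and close to unchanged in the median. Their median was -0.15 at 0 min and -0.25 at 30 min, with a median change of -0.03 (quartiles -0.28 and 0.18, n = 37). SNR67 had the only 2-fold change, from 1.5 to 0.09, and Brf1 was lower there too, by -2.19, while Tau95 was at 0.00. The next lowest were SNR128 (-0.99 to -1.82), SNR65 (-0.97 to -1.73), SNR57 (-0.34 to -1.08) and SNR37 (-0.72 to -1.29). The highest were SNR50 (0.98 to 1.81), SNR34 (0.08 to 0.87), SNR8 (-0.43 to 0.34), SNR42 (-0.98 to -0.50) and SNR62 (-0.11 to 0.34).

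ORF regions without a Pol III gene held more 2-fold higher (182) than lower (49) regions, and the scaling sets how many: with the arrays centred the counts were 139 and 77, and with equal spread 84 and 60. The highest changes were beside FYV10, a gene of the degradation of gluconeogenic enzymes (2.25 to 4.84), TRM10, a tRNA methyltransferase gene (1.93 to 4.30), ARE2, a sterol acyltransferase gene (-1.75 to 0.50), KAP123, a nuclear import receptor gene (1.74 to 3.94), and YMR320W (-0.44 to 1.72). The lowest were beside TRM3, a tRNA ribose methyltransferase gene (-0.68 to -2.45), RPS24A, a ribosomal protein gene (-0.08 to -1.78), UTP8, a gene of ribosome biogenesis (-0.70 to -2.38), IRC5 (0.44 to -1.18) and SHO1, an osmosensor gene (0.75 to -0.74). Of the highest, 3 began above zero, and the lowest 5 began between -0.70 and 0.75.

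The brighter ORF regions had the higher changes in the deposited values. The 32 ORF regions without a Pol III gene and with a level of 4 or more had a C160 median of 4.68 at 0 min and 5.42 at 30 min, with a median change of 0.70 and 6 below zero. The 37 tRNA-named regions of that level had 4.69 and then 4.07, with -0.45 and 29 below zero. At a level of 3 or more the medians were 0.52 (n = 81) and -0.46 (n = 106), and with equal spread they were 0.07 and -0.85. With equal spread the bright ORF regions were thus close to unchanged, which this scaling partly builds in, since it is set on ORF-named regions. They lay apart from the tRNA regions under either scaling.

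Of those 32 regions, 14 lay among the 5 outermost genes of a chromosome end, a split chosen after seeing the data, and these had a median change of 0.85 with 0 below zero. The other 18 had a median of 0.36 with 6 below zero. With equal spread the medians were 0.32 at the ends and -0.18 elsewhere. The region beside ARN2, a siderophore transporter gene, went from 4.39 to 6.23, that beside COS6 from 4.45 to 5.93 and that beside YRF1-4, a helicase gene of the repeated Y' elements, from 4.39 to 5.72. Such subtelomeric genes have near-identical copies, so their spots are not independent and may share signal. Brf1 was higher at these 3 regions by 0.92, 0.64 and 0.84, while Bdp1 lay between -0.11 and 0.05.

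Away from the ends, the region beside RPL25, a ribosomal protein gene, went from 4.41 to 6.16, and it was 1.17 higher rather than 1.76 with equal spread. LRS4, a nucleolar protein gene, had 6.59 and 7.84, and KTR1, a mannosyltransferase gene, had 7.18 and 8.13, the highest values of both arrays. The region beside ISC10, a gene of sporulation, went the other way, from 5.24 to 3.94, with Brf1 lower by -1.71, Bdp1 at -0.29 and Tau95 at 0.12. Among the 32 ORF regions without a Pol III gene of this level, it was the only one lower by 2-fold in the deposited values. With equal spread 2 were lower. The gene table has no Pol III gene at either end of the ISC10 region.

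The order of the regions within an array does not depend on its zero point or scale, and it differed between both C160 arrays. Among the 100 brightest regions, 28 were named for tRNA genes at 0 min and 14 at 30 min, and 66 regions were in both lists. ORF regions with a tRNA gene at the far end went from 26 to 20 and LTR regions from 13 to 12. ORF regions without a Pol III gene went from 30 to 49, of which 10 and then 18 were at chromosome ends. Among the 250 brightest, tRNA-named regions went from 88 to 60, with 192 regions shared.

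The change differed between chromosomes. The median of tRNA-named regions was lowest on chromosomes 2 (-0.73, n = 11), 5 (-0.67, n = 19) and 4 (-0.63, n = 25), and above zero on chromosomes 14 (0.52, n = 9), 6 (0.11, n = 10) and 3 (0.07, n = 9). With equal spread the median was 0.05 on chromosome 14, -0.28 on chromosome 6 and -0.10 on chromosome 3. The ORF regions without a Pol III gene varied in the same sense over a smaller range, from -0.02 on chromosomes 2 and 4 to 0.25 on chromosome 14 and 0.26 on chromosome 16. Across the 16 chromosomes both medians had a Pearson's r of 0.61, given as a description, since all points share the same pair of arrays. The tRNA median lay below the ORF median on 14 of 16 chromosomes, by a median of -0.43, and on 16 of 16 with equal spread. With each chromosome centred on its own ORF regions the tRNA median was -0.46.

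On chromosome 14, 6 of 9 tRNA-named regions had a higher C160 at 30 min. Besides tP(AGG)N, tL(CAA)N and tI(AAU)N1, described above, tI(AAU)N2 went from 3.80 to 4.32, tT(AGU)N2 from 4.27 to 4.79 and tP(UGG)N1 from 3.80 to 3.91, but with equal spread these 3 changes were 0.09, 0.05 and -0.29. The asparagine gene tN(GUU)N2 went from 3.21 to 2.54, tF(GAA)N from 3.22 to 2.75 and tP(UGG)N2 from 3.33 to 2.02. For the same 9 regions the median change of Brf1 was -0.15, that of Bdp1 0.12 and that of Tau95 0.32. What sets chromosomes apart was not tested, and spot positions were not used here.

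**Figure D5:**
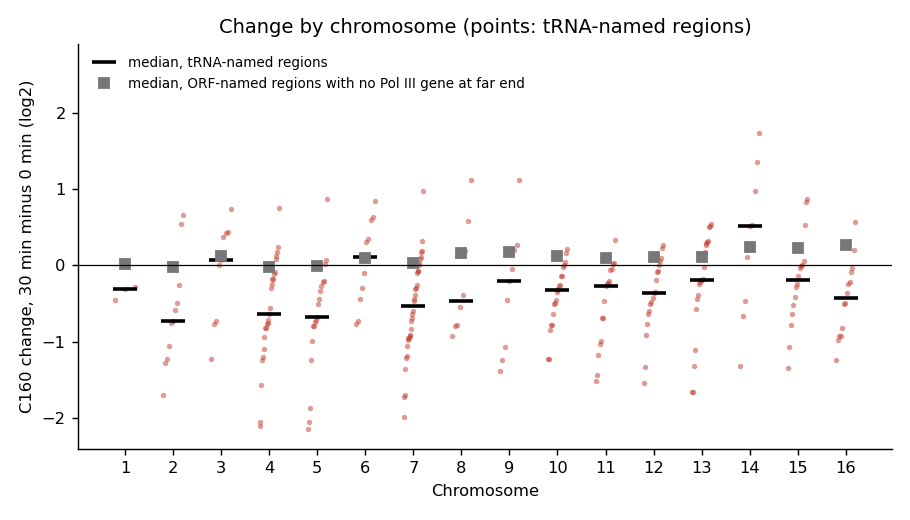
C160 change in log2 units of each tRNA-named region (points) by chromosome, with the median of these regions (bars) and of ORF regions without a Pol III gene (squares). The tRNA median is below the ORF median on 14 of 16 chromosomes and is highest on chromosome 14, at 0.52, or 0.05 with equal spread.

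Regions beside the genes of the Pol III machinery itself, found for 27 of 28 genes, had a median change of 0.06, which was -0.02 with centred arrays, with 3 lower and 1 higher by 2-fold, against 2.17% and 3.36% of all regions. The lower ones were RPC17, at a tRNA gene as described, RPC11, a subunit for transcript cleavage and termination (0.34 to -1.13), and RPC10, a small subunit shared with the other polymerases (-0.29 to -1.32). The higher one was RPC37 (1.24 to 2.81), followed by BDP1 (-1.36 to -0.54) and RPB8 (0.49 to 1.24). For ribosomal protein genes the changes had a median of 0.00 (126 of 129 regions with values), or -0.08 with centred arrays, with 2 lower by 2-fold, RPS24A and RPL11B (1.54 to 0.40), and 2 higher, RPL25 and RPL20A (1.68 to 2.71), near the same shares of all regions. Next to them came RPS2 (0.03 to -0.96) and RPL43B (1.09 to 2.07).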

How the data were processed

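The authors deposited 1 table of log2 values, with 1 column per array. Per the labels' design text, enrichment ratios of replicates were scaled to a median of 1 over loci that the Pol III machinery does not bind. No source used here states the background correction, spot filters, genome build or channel. The log base was read from the values: below the median, antilogs to base 2 fell on regular steps more strongly than antilogs to base e or 10. For base 2 the strength was 0.20 and 0.28 on the C160 arrays at 0 and 30 min and 0.94 on the Brf1 array at 30 min. For bases e and 10 it was 0.07 to 0.08 on the C160 arrays, and 0.17 and 0.20 on that Brf1 array. The contrast was thus weaker on the C160 arrays. No normalization was added, and no region was filtered for level. Classes came from region names, and neighbours and symbols from a RefSeq gene table of assembly R64, which matched 5525 of 5806 ORF-named regions. No coordinates or sequences are printed, since the array's build is unknown and no sequence file was used here. Medians, quartiles, order-statistic intervals and counts past 2-fold were computed with pandas 2.3.3, numpy 2.4.6 and scipy 1.17.1, after a check on simulated data. For arrays, their number, 1 a side, limits the precision. The regions named are the extremes of each class, the brightest tRNA genes and those nearest the 2-fold limit, all other Pol III genes, extremes of both gene lists, bright ORF regions and, chosen after seeing the data, chromosome 14 and chromosome ends. The members, lists and rules were chosen with earlier results of these data known. Alternatives were other zero points, equal spread, quantile normalization, filters, another fold limit and centring per chromosome.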

Additional observations from a re-analysis of the deposited data

How the results depend on the processing

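Of 91 recomputed class values and counts, 63 stayed within their 95% interval or within 1.5 times and 28 moved. Among these 91, signs turned only for values near zero: LTRs, the dimmest tRNA group and, per chromosome, ORF-named regions. Outside them, other medians turned with equal spread too. Those of ORF regions without a Pol III gene went from 0.38 to -0.04 at a level of 3 to 4. At 4 and above, away from chromosome ends, they went from 0.36 to -0.18. The tRNA medians went from 0.11 to -0.28 on chromosome 6 and from 0.07 to -0.10 on chromosome 3. With arrays centred on all regions, the median change was 0.03 for ORF-named regions (0.026), 0.04 for those without a Pol III gene (0.035), -0.38 for those with a tRNA gene at the far end and -0.36 upstream of tRNA genes. Centred on ORF regions without a Pol III gene, these were 0.022, 0.031, -0.38 and -0.37. With equal spread they were 0.015, 0.029, -0.54 and -0.44, with -0.67 for tRNA genes, -0.85 for the brightest group of these, -0.63 downstream, -0.17 for LTRs, 73 tRNA regions lower and 1 higher by 2-fold. After quantile normalization both ORF values were 0.028 and 0.036, and with a mean C160 of 0 or more 0.18 and 0.20. Centring per chromosome, chosen after seeing the data, gave -0.46 for tRNA genes, -0.0086 and 0.00 for both ORF values and 2 tRNA regions higher by 2-fold. A limit of 1.5-fold gave 92 lower and 16 higher, against 8.6% and 13.8% of all regions. The scalings explain their own shifts by construction; any other cause was not tested. Of 470 values of single regions, 469 were counted as unmoved and 1 as moved, that of RPL25 (1.76 as deposited, 1.17 with equal spread). This count does not measure the error of a single region, since every value was recomputed from the same pair of arrays. No paired analysis was possible because each group has 1 array. Both flanks of 1 tRNA gene, and regions between 2 tRNA genes, were not run, since tRNA names could not be paired with the gene table.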
